A study of Homo sapiens with 4 samples.

Results

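Tribbles proteins are pseudokinases, relatives of protein kinases that bind substrates and partners but have little or no catalytic activity. Their pseudokinase fold holds a substrate such as the transcription factor C/EBP-alpha, and their tail recruits COP1, the ubiquitin ligase that marks it for degradation. TRIB3 is also known to bind AKT, the kinase of insulin and growth factor signalling, and Tribbles proteins have been described to bind MAP2K kinases, which switch on the ERK and JNK pathways. This account covers the 9 genes TRIB1, TRIB2, TRIB3, COP1, AKT1, AKT2, MAP2K1, MAP2K4 and MAP2K7, through every probe set that the platform annotation assigns to one of them alone. That rule took 20 of 54613 probe sets and covered 8 of the 9 genes. MAP2K7 had no such probe set, and its expression was not analysed here.

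The arrays measured MKN45 cells, a human gastric epithelial line from an adenocarcinoma. The 2 LPS arrays were from cells given 10 µg/ml Helicobacter pylori lipopolysaccharide, the glycolipid of the outer bacterial membrane, in new medium. The 2 untreated arrays were from cells given new medium alone, and RNA of both groups was taken 8 h later. The series text speaks of 2 independent experiments with this 1 line, and the p-values measure only the spread between these arrays.

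The arrays were alike as wholes, with medians of 7.004 to 7.034 on the log2 scale and correlations across probe sets of 0.996 to 0.998 between any pair. Poly-A spike-ins, bacterial transcripts added before labelling, were lower by 0.48 on the LPS arrays, with 24 of 24 probe sets below both untreated arrays. The 3' minus 5' gap of ACTB, a measure of RNA length, was 0.64 and 0.86 on the untreated and 0.39 and 0.63 on the LPS arrays, while that of GAPDH overlapped. All 8 epithelial markers lay above the level filter, among them EPCAM and KRT18. Their mean levels were 12.39 to 12.46 on untreated and 12.44 on LPS arrays. Of the leukocyte markers, 6 of 8 lay above it, with mean levels of 7.56 to 7.64 on untreated and 7.63 to 7.70 on LPS arrays, and PTPRC and CD14, which define leukocytes and monocytes, lay below it. Of the fibroblast and endothelial markers, 8 of 9 lay above the filter (7.28 to 7.37 and 7.36 to 7.41), and the endothelial cadherin CDH5 lay below it. No marker passed the limma threshold.

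The sequences just upstream of the members were read for matches to known response motifs. Sites that differ from the letters searched, or lie outside the windows, would be missed. RefSeq promoter windows of GRCh38.p14 covered each of the 9 genes except TRIB1, MAP2K7 included, with 13 windows in all, and the 250 bases before each start were searched on both strands for 3 motifs. These were the NF-kB consensus, bound by a transcription factor of inflammation, TGACGT, the half-site of CREB and ATF factors, and TGATGNAA, the core of the ATF4 amino acid response element. The matches in member windows did not overlap one another. The NF-kB consensus was in 1 of 13 member windows, which belongs to AKT1, and in 9.96% of all 35116 windows. It was in the windows of CCL20 and CXCL1, which responded to LPS on these arrays, and not in that of CXCL8, which also responded. The half-site was in 2 of 13 member windows, 1 of AKT2 and 1 of MAP2K1, against 7.1% of all windows. AKT1, AKT2 and MAP2K1 each also had a window at another start, which held none of the 3 motifs. The windows of TRIB3 overlap one another, so the 13 are not separate sequences. The amino acid response core was in 0 of 13, against 3.14% of all windows.

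Among the members, AKT2 and AKT1 had the 2 largest differences between the groups, and MAP2K1 one of the smallest. The 3 member windows with a match, of AKT1, AKT2 and MAP2K1, are printed, and a link of match and difference was not tested. The TRIB2 window, which held none of the 3 motifs, stands beside them. Capitals mark the match, and ACGTCA is TGACGT on the other strand. The printed window of AKT1 is chr14:104795749-104795998 on the minus strand, and that of AKT2 is chr19:40285346-40285595 on the minus strand. That of MAP2K1 is chr15:66386662-66386911 on the plus strand, and that of TRIB2 is chr2:12716686-12716935 on the plus strand.
AKT1: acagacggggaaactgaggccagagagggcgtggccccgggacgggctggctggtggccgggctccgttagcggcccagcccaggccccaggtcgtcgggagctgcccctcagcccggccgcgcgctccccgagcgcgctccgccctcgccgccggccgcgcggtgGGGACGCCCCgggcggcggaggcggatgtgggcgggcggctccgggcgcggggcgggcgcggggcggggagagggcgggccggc
AKT2: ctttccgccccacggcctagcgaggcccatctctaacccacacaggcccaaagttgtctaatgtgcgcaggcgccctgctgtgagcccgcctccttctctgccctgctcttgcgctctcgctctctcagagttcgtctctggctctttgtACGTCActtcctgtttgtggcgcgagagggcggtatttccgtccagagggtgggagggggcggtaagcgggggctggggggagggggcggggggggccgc
MAP2K1: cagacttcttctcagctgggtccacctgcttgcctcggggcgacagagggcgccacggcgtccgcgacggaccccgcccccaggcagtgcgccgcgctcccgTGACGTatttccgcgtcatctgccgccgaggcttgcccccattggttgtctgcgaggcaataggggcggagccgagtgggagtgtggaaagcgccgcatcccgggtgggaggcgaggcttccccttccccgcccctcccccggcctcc
TRIB2: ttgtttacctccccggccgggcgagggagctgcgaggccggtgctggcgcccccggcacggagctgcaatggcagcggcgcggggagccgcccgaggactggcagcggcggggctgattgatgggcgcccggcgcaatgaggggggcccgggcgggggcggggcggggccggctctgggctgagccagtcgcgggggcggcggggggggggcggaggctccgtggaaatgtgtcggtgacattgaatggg
Counted to the start that follows each printed window, the matches begin 84 bases before it for AKT1, 100 for AKT2 and 148 for MAP2K1. A match is a stretch of letters, and binding was not measured.

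The comparison of LPS with untreated cells asked whether transcripts of this signalling group respond to the bacterial product. None of the member transcripts rose or fell past the threshold of an adjusted p under 0.05. Of the 20 probe sets, 17 passed the filter on low values and were tested, and limma called 0 of them, with adjusted p-values of 0.232 to 0.961. Over all 38229 probe sets tested, 0.00785% were called. At an unadjusted p under 0.05 there was 1 member of 17, an AKT2 probe set, where 11.7% of all probe sets lay. On the same arrays the chemokine genes CCL20, CXCL1 and CXCL8 rose 7.61-fold, 3.98-fold and 3.31-fold (limma adjusted p = 0.000231, 0.000674 and 0.00295). With adjustment over all probe sets, the smallest log2 difference called was 1.73. With adjustment over genes 4 were called, not all of them by as much. The 95% intervals of the 17 member differences reached at most 0.46 from 0, so a log2 change of 1.73 lay outside each of them. In bulk RNA, a change in some cells and a smaller one in all cells cannot be told apart. The largest upper bound of the members, that of AKT2, was 1.38-fold.

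**Figure D1:**
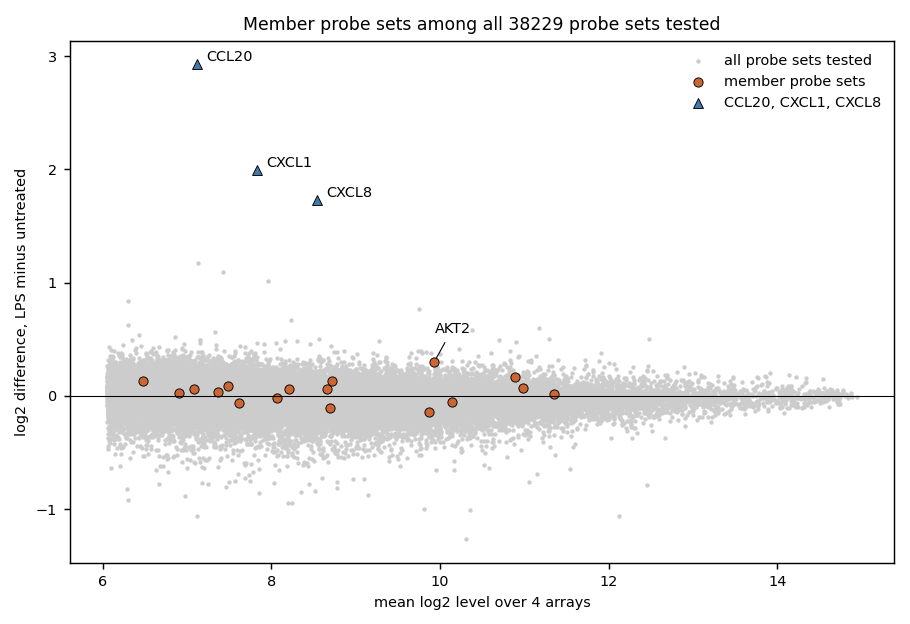
Log2 difference (LPS minus untreated, y axis) against mean log2 level over 4 arrays (x axis) for all 38229 probe sets tested (grey), the 17 member probe sets (orange circles) and CCL20, CXCL1 and CXCL8 (blue triangles). The members lie from -0.14 to 0.30, inside the grey cloud, and the chemokines lie at 1.73 to 2.93.

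TRIB1, which brings C/EBP factors to COP1, was read by 3 probe sets. The probe set 202241_at lay at 10.97 and 10.93 in untreated cells and at 11.01 and 11.04 in LPS-treated cells (log2 levels). The LPS pair was the higher one, but the nearest arrays of the groups lay only 0.03 apart, less than the gap between the untreated arrays. The log2 difference was 0.07 (interval -0.07 to 0.21, limma adjusted p = 0.658). The other 2 TRIB1 probe sets lay under the filter, no higher than the 20.4 percentile of all probe sets, and were not tested. Of these, 239818_x_at lay at 5.41 and 5.35 untreated and 5.59 and 5.42 with LPS, and 235641_at at 5.28 and 5.47 untreated and 5.50 and 5.43 with LPS. The first kept the groups apart by less than 0.01 and the second overlapped. Their log2 differences were 0.12 and 0.09.

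TRIB2, the relative that also targets C/EBP-alpha through COP1, was read by 2 probe sets. On 202478_at it lay at 8.81 and 8.68 in untreated and 8.57 and 8.70 in LPS-treated cells. The groups overlapped, since the second LPS array exceeded the second untreated one. The log2 difference was -0.11 (interval -0.32 to 0.10, limma adjusted p = 0.655), and -0.18 to -0.04 with 1 array left out. On 202479_s_at the levels were 7.70 and 7.59 untreated and 7.63 and 7.54 with LPS. Here too the groups overlapped, and the log2 difference was -0.06 (interval -0.26 to 0.14, limma adjusted p = 0.818). Probe sets ending in _s_at or _x_at can bind more than 1 transcript.

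TRIB3, the stress-induced member known for binding AKT, was read by 218145_at at 8.72 and 8.58 in untreated and 8.73 and 8.84 in LPS-treated cells. Both LPS arrays lay above both untreated arrays, but the lower LPS array exceeded the higher untreated one by only 0.0058. The log2 difference was 0.13 (interval -0.07 to 0.34, limma adjusted p = 0.583). It came to 0.21 without untreated replicate 1, to 0.06 without untreated replicate 2 and to 0.08 without LPS replicate 2. The second probe set, 1555788_a_at, lay at 6.91 and 6.88 untreated and 6.94 and 6.90 with LPS. The groups overlapped there, with a log2 difference of 0.03 (interval -0.16 to 0.21, limma adjusted p = 0.929). Among the Tribbles genes the values for TRIB1 and TRIB3 were thus above 0 on each probe set and those for TRIB2 below 0 on each, also after quantile normalization, median centring and cyclic loess. None of these differences passed the test, and the difference between the genes was not tested.

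COP1, the ubiquitin ligase itself, was read by 2 probe sets, and on each of them the LPS pair was the lower one. On 1552617_a_at the levels were 10.22 and 10.12 untreated and 10.10 and 10.12 with LPS. The second arrays of both groups differed there by less than 0.003, and the log2 difference was -0.06 (interval -0.22 to 0.11, limma adjusted p = 0.788). It came to -0.0088 without untreated replicate 1 and to -0.11 without untreated replicate 2. On 234950_s_at the levels were 9.99 and 9.89 untreated and 9.75 and 9.85 with LPS, a log2 difference of -0.14 (interval -0.32 to 0.04, limma adjusted p = 0.51). Over all probe sets tested, 24.2% had both LPS arrays below both untreated ones. The mean levels of the COP1 probe sets were 10.14 and 9.87. With genes split by level into 10 bins, bin 8 (mean level 10.0) had a median of -0.05, with 65.5% below 0. After quantile normalization the first of these differences came to -0.0043 and the second to -0.09.

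**Figure D2:**
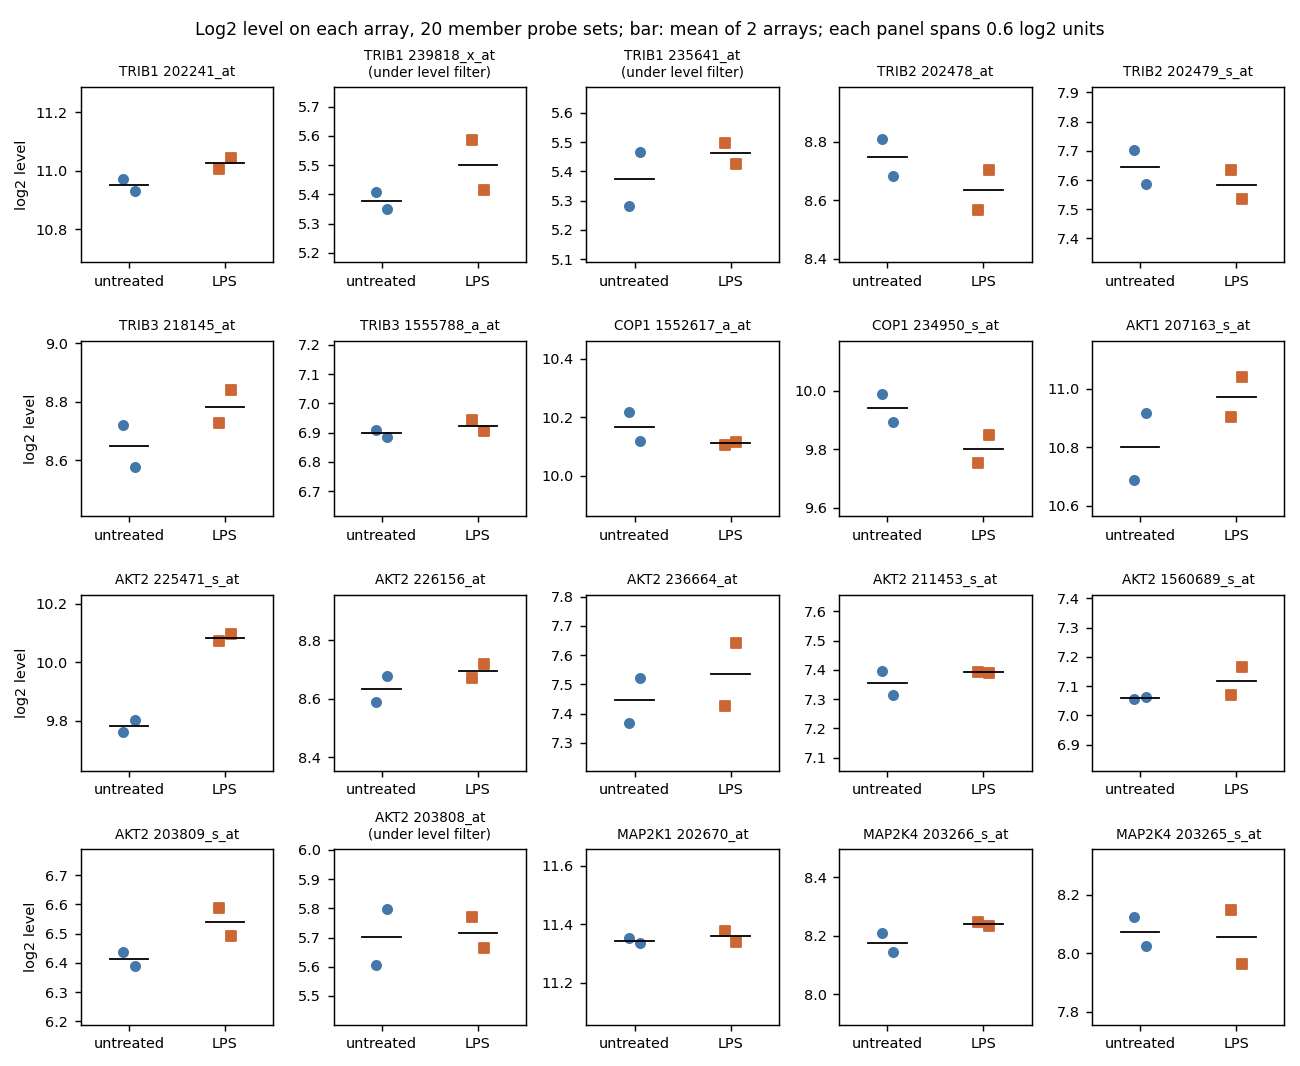
Log2 level on each array for the 20 member probe sets, untreated as blue circles and LPS as orange squares, with a bar at the mean of 2 arrays; each y axis spans 0.6 log2 units. Of the 17 probe sets tested, 6 have both LPS arrays above both untreated arrays, 2 have both below and 9 overlap. AKT2 alone holds 3 of these 6. Of all probe sets tested, 19.1% lie above and 24.2% below. The gap is widest for AKT2 225471_s_at.

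AKT1, a main kinase isoform of growth and survival signalling, was read by 207163_s_at at 10.69 and 10.92 in untreated and 10.90 and 11.04 in LPS-treated cells. The untreated arrays lay 0.23 apart, which was more than the difference between the groups, and the groups overlapped. The log2 difference was 0.17 (interval -0.05 to 0.39, limma adjusted p = 0.507). It came to 0.05 without untreated replicate 1, to 0.29 without untreated replicate 2 and to 0.10 without LPS replicate 2. The fit with replicate number as a block gave AKT1 an interval of 0.03 to 0.31 and an adjusted p of 0.255 in limma.

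AKT2, the isoform known for insulin-driven glucose uptake, had 7 probe sets. On its brightest, 225471_s_at, the levels were 9.76 and 9.80 in untreated and 10.07 and 10.10 in LPS-treated cells. The groups lay apart by more than 6 times the spread within either of them. The log2 difference was 0.30 (1.23-fold, interval 1.10 to 1.38), with an unadjusted p of 0.00286 and a limma adjusted p of 0.232, so it did not pass. Of all probe sets tested, 1.23% had a smaller p and 3.33% a larger difference in either direction. The value was 0.28 to 0.32 with 1 array left out and 0.29 to 0.36 under other scalings of the arrays. The poly-A spike-ins and the ACTB gap, given above, also separated the groups, and their part in this result was not tested.

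The other AKT2 probe sets gave smaller differences. On 203809_s_at the levels were 6.44 and 6.39 untreated and 6.59 and 6.49 with LPS, a log2 difference of 0.13 (limma adjusted p = 0.584). Those of 1560689_s_at were 7.06 and 7.06 untreated and 7.07 and 7.17 with LPS, a difference of 0.06. In both cases the LPS arrays lay above the untreated arrays. The probe sets 226156_at, 236664_at and 211453_s_at overlapped between the groups, with log2 differences of 0.06, 0.09 and 0.04 and limma adjusted p-values of 0.793, 0.775 and 0.894. The faintest, 203808_at, lay under the filter at 5.61 and 5.80 untreated and 5.77 and 5.66 with LPS, and differed by 0.01. The mean of the 6 tested AKT2 probe sets differed by 0.11 (interval -0.03 to 0.25, limma adjusted p = 0.476). The value for AKT2 therefore depended on the probe set, and the difference between its probe sets was not tested. All 7 values were above 0, except that 203808_at came to -0.0045 after quantile normalization and -0.0082 after cyclic loess.

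MAP2K1, the MEK1 kinase that activates ERK, had the narrowest interval of the members. Its levels on 202670_at were 11.35 and 11.33 in untreated and 11.38 and 11.34 in LPS-treated cells. The groups overlapped, with a log2 difference of 0.01 (interval -0.11 to 0.14, limma adjusted p = 0.949). The sign turned after median centring (-0.00020) and without LPS replicate 1 (-0.0057). MAP2K4, the MKK4 kinase that activates JNK, lay at 8.21 and 8.14 untreated and 8.25 and 8.23 with LPS on 203266_s_at. The LPS arrays were the higher pair there, with a log2 difference of 0.06 (interval -0.11 to 0.24, limma adjusted p = 0.779). It came to 0.10 without untreated replicate 1 and to 0.03 without untreated replicate 2. On 203265_s_at MAP2K4 lay at 8.12 and 8.03 untreated and 8.15 and 7.97 with LPS. These groups overlapped and differed by -0.02 (interval -0.24 to 0.20, limma adjusted p = 0.961), or by 0.0021 after quantile normalization.

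**Figure D3:**
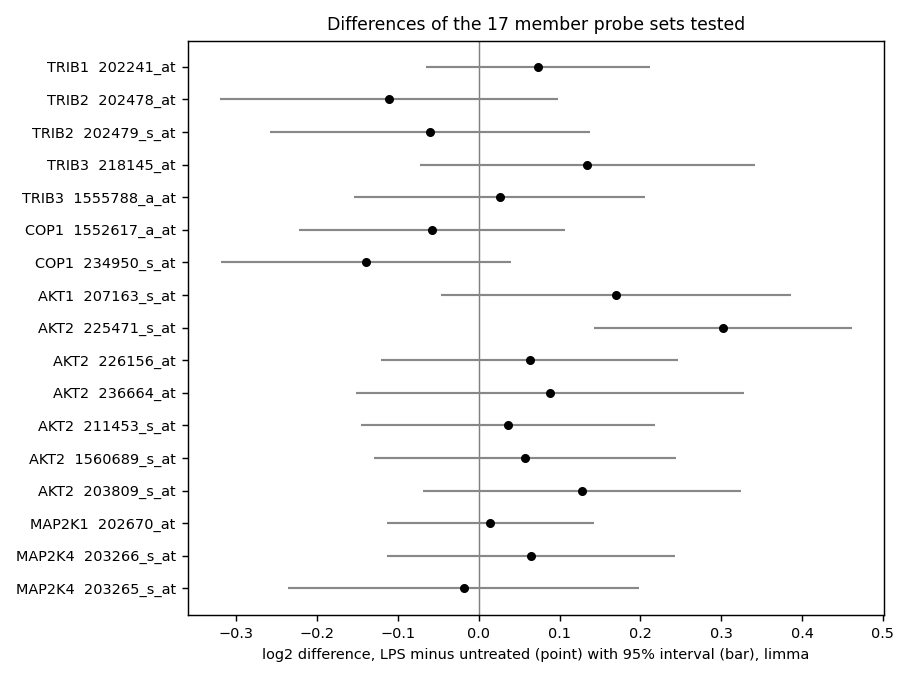
Log2 difference, LPS minus untreated, with its 95% limma interval (x axis) for the 17 member probe sets tested (rows). The interval of AKT2 225471_s_at, 0.14 to 0.46, is the only one of the 17 that leaves out 0, without adjustment for the number of tests.

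As a group the members gave more values above 0 than below. Of the 17 probe sets tested, 12 were above 0 and 5 below, where 48.5% of all probe sets tested were above 0. Of the 12, 6 belonged to AKT2 and share that gene. With genes split by level into 10 bins, dim genes were in general slightly higher with LPS. In bins 1 to 3 (mean levels 6.34 to 7.24) the medians were 0.03, with 36.2% to 38.5% below 0. Bins 6 to 10 had medians below 0. AKT2 203809_s_at and 1560689_s_at and TRIB3 1555788_a_at, at mean levels of 6.48, 7.09 and 6.91, lay in the range of bins 1 to 3. The median log2 difference was 0.06, against -0.0039 over all probe sets tested. The number above 0 was 13, 11 and 12 after quantile normalization, median centring and cyclic loess. Both LPS arrays exceeded both untreated arrays in 6 of 17, against 19.1% of all, and lay below them in 2, against 24.2% of all. AKT2 alone held 3 of these 6. The median absolute log2 difference was 0.06 among the members and 0.08 over all probe sets tested.

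Genes around the members were taken from 7 lists, through 1 probe set a gene, and none passed the test. Of 80 genes listed, 69 were measured, and limma called 0 of them higher and 0 lower, where 0.0246% of 16252 genes were called, each higher. Without adjustment, a p under 0.05 was reached by 3 genes on the higher and 8 on the lower side, where 3.72% and 7.91% of all genes lay. Genes in the brighter bins of level were in general slightly lower with LPS, with medians of -0.05 in bins 8 and 9 of 10 (mean levels 10.0 and 10.8).

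The substrates and machinery of COP1 held values on both sides. Of 9 measured substrates, 4 were above 0 and 5 below (median -0.02). CEBPA, the factor that TRIB1 and TRIB2 target, lay at 9.25 and 9.29 untreated and 9.39 and 9.64 with LPS. Its log2 difference of 0.25 did not pass (interval 0.01 to 0.48, limma adjusted p = 0.414). ETV1, an ETS factor degraded through COP1, lay at 10.69 and 10.72 untreated and 10.33 and 10.19 with LPS. Its log2 difference of -0.45 did not pass either (limma adjusted p = 0.257), and 4 further probe sets of ETV1 ran from -0.25 to 0.12. Of the 7 genes of the ligase complex and Tribbles relatives, 3 were above 0 and 4 below (median -0.02). STK40, a pseudokinase related to Tribbles, differed by 0.19 and CUL4A, the cullin scaffold of the ligase, by -0.13 (limma adjusted p = 0.415 and 0.404). The other probe set of STK40 gave 0.03, and 3 further ones of CUL4A ran from -0.12 to 0.19. Both medians were above 0 after quantile normalization or cyclic loess.

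The genes of the stress response around TRIB3, some of which induce it and some of which, such as ASNS, are induced beside it, gave 5 values above 0 and 6 below among 11 measured (median -0.0018, or 0.04 after quantile normalization). PPP1R15A, the phosphatase subunit that restarts translation after stress, differed by 0.22 (limma adjusted p = 0.394) and ASNS, asparagine synthetase, by -0.13 (limma adjusted p = 0.49). The other probe set of PPP1R15A gave 0.08, and that of ASNS lay on the other side of 0, at 0.11.

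Of 12 measured regulators of PI3K and AKT, 8 lay below 0 (median -0.10). Of all genes tested 51.8% lay below 0, and 60.7% of those in level bin 7, whose mean level of 9.36 is near that of these lists. The PI3K subunit PIK3R1 lay at 10.97 and 11.11 untreated and 10.71 and 10.60 with LPS. Both LPS arrays were the lower pair, and the log2 difference of -0.38 did not pass (interval -0.56 to -0.21, limma adjusted p = 0.257). Its other 2 probe sets gave -0.53 and -0.17. AKTIP, which binds AKT, differed by -0.20 (limma adjusted p = 0.392), against 0.02 on its other probe set. A p under 0.05 without adjustment was reached by 0 on the higher and 4 on the lower side, against 3.72% and 7.91% of all genes. The 4 were PIK3R1, AKTIP, INPP4B and PDPK1. On INPP4B 3 further probe sets ran from -0.07 to -0.0039, and on PDPK1 5 further ones from -0.06 to 0.14. After quantile normalization the median was -0.05, with 6 of 12 below 0. Of 12 AKT substrates, 2 were above 0 and 10 below (median -0.07), against the same shares of all genes and of that bin, with 0 at an unadjusted p under 0.05. The forkhead factor FOXO4 differed by -0.21 and CDKN1B, the cell cycle inhibitor p27, by -0.16 (limma adjusted p = 0.448 and 0.432). The median of the substrates was -0.03, with 7 of 12 below 0, after quantile normalization.

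The kinase modules beside the MAP2K members were split. Of 5 measured genes of the ERK module, 3 were above 0 and 2 below (median 0.03). The scaffold gene LAMTOR3 differed by -0.29 and the kinase gene ARAF by 0.08 (limma adjusted p = 0.388 and 0.656), and their other probe sets gave -0.09 and 0.13. In the JNK and p38 module 6 of 13 were above 0 and 7 below (median -0.01, or 0.02 after quantile normalization). MAP3K5, the stress kinase ASK1 upstream of MAP2K4, lay at 8.38 and 8.35 untreated and 8.09 and 8.09 with LPS. Both groups were tight and apart, but its log2 difference of -0.28 did not pass (interval -0.45 to -0.10, limma adjusted p = 0.323), and its other probe set also gave -0.28. MAPK10, the JNK3 kinase, differed by 0.23 (limma adjusted p = 0.427), against 0.01 and 0.06 on its other 2 probe sets.

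**Figure D4:**
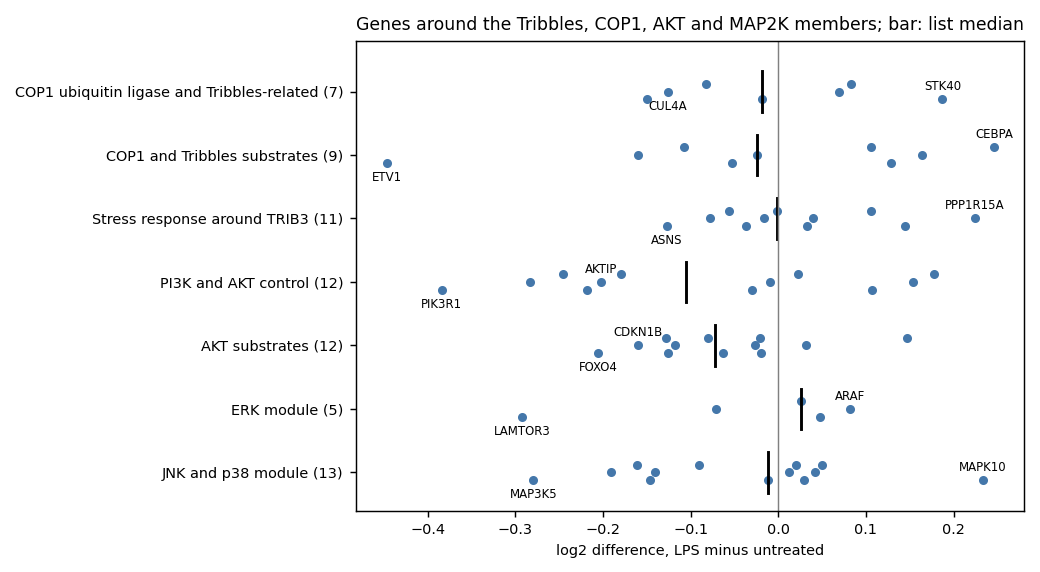
Log2 difference, LPS minus untreated (x axis), of each measured gene in the 7 pathway lists (rows, with the number measured); each point is 1 gene and the bar is the list median. The medians run from -0.10 for PI3K and AKT control to 0.03 for the ERK module, and the points named are the 2 genes of each list with the smallest p.

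The genes closest in pattern to the Tribbles genes were found over the 4 arrays, by the Euclidean distance between log2 values centred on each gene's mean. For TRIB1 these were RAI14 and POLR2D (distances 0.0035 and 0.0049), for TRIB2 PYCARD and NDUFAF7 (0.0072 and 0.0074) and for TRIB3 MED12 and ALDH1A3 (0.0081 and 0.02). With only 4 arrays many genes were near. Of 16251 others, 2943 lay within 0.1 of TRIB1, 1071 of TRIB2 and 478 of TRIB3.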

How the data were processed

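Total RNA of the 4 samples was labelled with biotin and hybridised to Affymetrix arrays, per the labels' protocols. MAS5 and RMA are named in the submitters' processing notes, and which made the deposited log2 values, and with which versions, is not given in the sources used here. The log2 scale was judged from the values. The near-equal distributions of the arrays would hide a shift of all transcripts 1 way.

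The 62 control probe sets were left out, and probe sets with a mean under the 30 percentile (6.06) were not tested. Symbols came from the platform annotation, where 41091 probe sets had a single symbol, 1801 several and 11721 none. They were matched by Entrez identifier to RefSeq (GRCh38.p14), which changed 0 symbols. limma 3.58.1 in R 4.3.3 compared the groups (lmFit, eBayes with trend, no block), two-sided, with Benjamini-Hochberg adjustment over all 38229 probe sets or, from the same fit, over 16252 genes, each by its brightest probe set. Under the filter, differences are given without a test. The procedure was tested on simulated data. Alternatives were the filter, 3 scalings, 2 variance models, a replicate block, a threshold of 0.1, gene means, leaving out each array and, chosen after seeing the data, a refit on genes.

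All members were named. In each list, genes past the threshold or the 2 with the smallest p were named, and for each Tribbles gene the 2 nearest in pattern. INPP4B and PDPK1 were added, as the others of their list at an unadjusted p under 0.05. CXCL8, CCL20 and CXCL1 were always given. The members and lists were chosen with earlier results of these data known. The number of arrays limits the precision.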

Additional observations from a re-analysis of the deposited data

How the results depend on the processing

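Limma called 0 member probe sets and 0 list genes under each alternative that was run. For 8 member genes, 120 differences were recomputed over 15 alternatives. Each was that of the brightest probe set or, with gene means, of the mean of the tested probe sets. The filter, variance models, block, threshold and refit leave a difference as it is. Its direction could change only with the scalings, gene means or an array left out. Of the 120, 118 kept their direction. The exceptions were 2 values of MAP2K1, -0.00020 after median centring and -0.0057 without LPS replicate 1, and its values with 1 array left out ran from -0.0057 to 0.034. Among the other member probe sets, AKT2 203808_at and MAP2K4 203265_s_at also changed sign under other scalings, as given above. Over all probe sets, the count called higher was 6 after median centring and 2 to 5 with 1 array left out, against 3. The count called lower, 0 as reported, was 1 with a filter at the 50 percentile or robust estimation, 4 after quantile normalization or cyclic loess, 11 after median centring, 5 at an adjusted p under 0.1 and 0 to 6 with 1 array left out. At an unadjusted p under 0.05 there were 1411 higher and 3066 lower. Over genes, 10 were called in the refit on genes, against 4, and 7 with the replicate block. The labels name no block, and whether same-numbered samples share an experiment is not known here. Their deviations correlated at 0.21 across probe sets, and the block put 2 members at an unadjusted p under 0.05, against 1. The cause of these changes was not tested.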
